A study of Mus musculus with 4 samples.

Results

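The Ugt1a cluster is a row of genes on mouse chromosome 1 that encode UDP-glucuronosyltransferases of family 1A. Its members were taken here as every gene of the RNA-seq table whose name starts with Ugt1a, which gave 8 of 31828 genes. In the hepatocyte line AML12, 6 of these genes were called higher in 3D than in 2D culture, as were 23.4% of all genes tested. Of the 6, Ugt1a9 and Ugt1a10 reached the minimum level for the test through the 3D libraries alone. The summed level of the 8 was 8.98-fold higher in 3D. Ugt1a6b had the highest level in both cultures. Ugt1a9, at 0.0281 TPM in 2D, stood at 19.1 TPM in 3D, behind only Ugt1a6b and Ugt1a6a.

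RNA was measured in AML12, a cell line of mouse hepatocytes, with 2 libraries from cells plated on dishes (2D) and 2 from cells grown inside Matrigel, an extract of basement membrane proteins (3D). The medium of both cultures held serum, insulin, transferrin, selenium and dexamethasone. All 4 libraries come from cells given 1 mM hydroxyurea, which blocks DNA replication and stops cells at the G1/S boundary. The exposure lasted 24 h in 2D and 36 h in 3D. It began at a set confluence in 2D and after a set time of growth in 3D. Dimension, the Matrigel itself, stage of growth and exposure time therefore cannot be told apart. The labels do not say that the libraries of a culture came from separate cultures, so the p-values measure the spread between these libraries, which may be technical. The values are TPM, transcript abundances in which length is accounted for and every library adds up to an equal total. They keep no record of depth, and the depth of the libraries is unknown. In bulk RNA, more cells of a type and more RNA per cell cannot be told apart.

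UDP-glucuronosyltransferases sit in the membrane of the endoplasmic reticulum and join glucuronic acid, donated by UDP-glucuronic acid, to bilirubin, steroids, bile acids, phenols and many drugs. The products dissolve in water and leave the hepatocyte through export pumps into bile or blood. The Ugt1a locus has an unusual layout. Each member has a promoter and a first exon of its own, which encodes most of the part that binds the substrate, and all members splice onto the same downstream exons, which encode the part that binds UDP-glucuronic acid and the membrane anchor. Ugt1a1 is the enzyme that conjugates bilirubin. The Ugt1a6 enzymes act mainly on small planar phenols, and their genes are classical targets of the aryl hydrocarbon receptor.

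The sequence at the splice of the first exon onto the shared exons is shown for each member, because most reads that can be told from those of another member reach into the lower-case part or lie in the first exon. Ugt1a7c also has bases of its own in a longer last exon, of 1876 bases against 871 in the shortest. Bases come from the plus strand of GRCm38, 5′ to 3′, with the exons of GENCODE release M21. The last 20 bases of the coding first exon are in lower case and the first 10 bases of the shared exon, which starts at position 88215044, are in capitals.
Ugt1a10: aggggaagccactttccaagGAATTTGAAG
Ugt1a9: agaagaagtcactttccaagGAATTTGAAG
Ugt1a7c: agggaaagccactttccaagGAATTTGAAG
Ugt1a6b and Ugt1a6a: agaagggaaagctgactcagGAATTTGAAG
Ugt1a5 and Ugt1a2: ccaagaagcccctctctcagGAATTTGAAG
Ugt1a1: agaaaaagcccctatcccagGAATTTGAAG

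The 20 bases were identical between Ugt1a6a and Ugt1a6b and between Ugt1a5 and Ugt1a2. Over the whole coding first exon, Ugt1a6a and Ugt1a6b were 97.0% identical, Ugt1a10 and Ugt1a9 86.9%, and Ugt1a2 and Ugt1a5 80.2%. The shared exons lie at chr1:88215044-88215175, chr1:88215795-88215882, chr1:88216138-88216357 and chr1:88218127-88218997, the last with later ends in some members. They hold 735 coding bases, 45.8% to 46.4% of the coding length of a member. The first exons lie up to 159.6 kb before them, the distance of Ugt1a10, and the nearest, that of Ugt1a1, starts 3.1 kb before them.

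**Figure D1:**
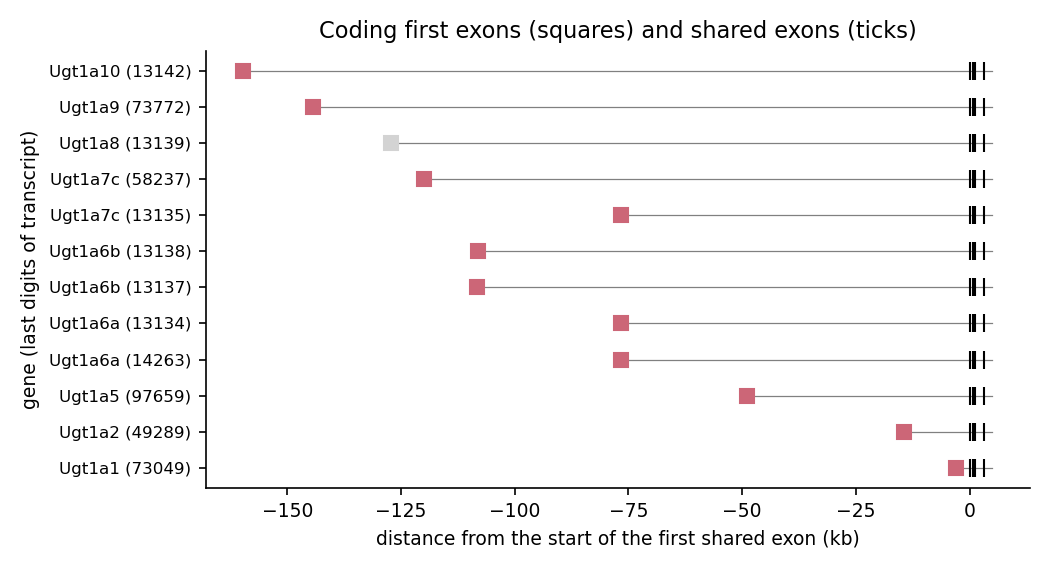
Layout of the Ugt1a transcripts in GENCODE release M21, with the distance in kb from the start of the first shared exon on the x axis and 1 transcript per line. Squares mark the coding first exons (grey for Ugt1a8, which is not among the genes analysed here) and ticks the shared exons. The squares run from 159.6 kb (Ugt1a10) to 3.1 kb (Ugt1a1) before exons that every line shares, and a Ugt1a7c transcript has its square at the place of Ugt1a6a.

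How far the annotation lets reads be assigned differed between members. Of all windows of 150 bases, the read length, in the main transcript of a member, 38.5% (Ugt1a7c) to 66.2% (Ugt1a6b) were found unchanged in a transcript of another member, except for Ugt1a6a. For Ugt1a6a the share was 97.2% in one transcript and 100% in the other, since a second transcript annotated to Ugt1a7c starts at the leader of Ugt1a6b and uses the coding first exon of Ugt1a6a. Of the windows that start before the shared exons, only 0.3% to 2.1% occurred in another member for Ugt1a1, Ugt1a9, Ugt1a10 and the main transcript of Ugt1a7c. This share was 12.9% for Ugt1a2, 13% for Ugt1a5 and 18.7% or 26.1% for the transcripts of Ugt1a6b. The split of TPM among Ugt1a6a, Ugt1a6b and Ugt1a7c is therefore uncertain, and their sum is given beside them.

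The genes were compared between cultures on log2(TPM + 1) with limma, a linear model that shares information on the variance across all genes, over the 14116 genes with a mean of at least 1 TPM. A gene was called where the adjusted p-value was under 0.05. Among all genes tested 50.5% were called, 23.4% as higher and 27.1% as lower in 3D, and the median log2 fold change was -0.04. Of the 8 Ugt1a genes 7 were tested, 6 were called higher in 3D, 1 was not called and none was called lower. Ugt1a10, Ugt1a9 and Ugt1a2 reached the minimum level through the 3D libraries alone, so the count over the tested members is a description. The 4 members with a mean of at least 1 TPM in both cultures, Ugt1a1, Ugt1a6a, Ugt1a6b and Ugt1a7c, were all called higher. Log2 fold changes of TPM + 1 understate the change of genes near or under 1 TPM.

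**Figure D2:**
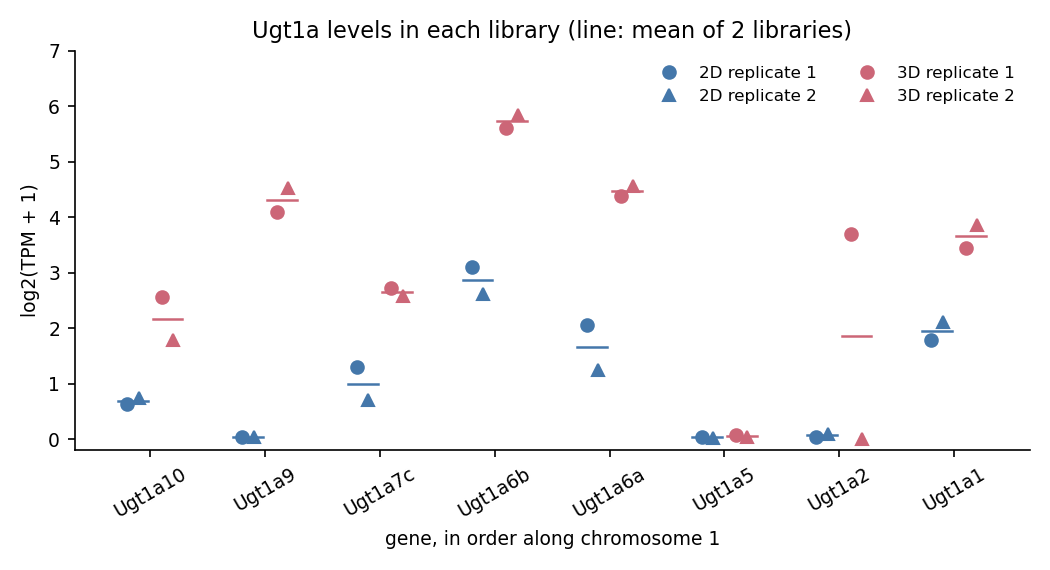
Level of each Ugt1a gene as log2(TPM + 1) on the y axis, in order along the chromosome on the x axis, with 1 point per library (circles, replicate 1, and triangles, replicate 2; blue, 2D; red, 3D) and a line at the mean of the 2 libraries. Both red points lie above both blue points for 6 genes, while for Ugt1a2 a red point lies at 0 and for Ugt1a5 all points lie near 0.

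Ugt1a1 (ENSMUSG00000089960, chr1:88211959-88218997, plus strand), the bilirubin conjugating enzyme, was at 2.46 and 3.29 TPM in the 2D libraries and at 9.87 and 13.5 TPM in the 3D libraries. Both 3D libraries lay above both 2D libraries, which held for 35.9% of all genes tested, and the reverse held for 41.6%. Mean TPM (± SD, n = 2) was 2.88 ± 0.591 in 2D against 11.7 ± 2.58 in 3D, a 4.07-fold difference. The log2 fold change was 1.71 (SE 0.19, 95% interval 1.202 to 2.21, limma adjusted p = 0.00279). With a first exon that nearly no window of another member matches, Ugt1a1 is one of the members whose level depends least on how reads of the first exons were divided.

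Ugt1a6b (ENSMUSG00000090145, chr1:88103252-88219003), one of the phenol-conjugating enzymes, was at 7.61 and 5.14 TPM in the 2D libraries and at 47.7 and 56.7 TPM in the 3D libraries. The cultures did not overlap. Mean TPM (± SD, n = 2) was 6.37 ± 1.75 in 2D against 52.2 ± 6.37 in 3D, an 8.19-fold difference, with a log2 fold change of 2.87 (SE 0.19 and adjusted p = 0.000747 by limma). Its near-identical partner Ugt1a6a (ENSMUSG00000054545, chr1:88134809-88218997) was at 3.18 and 1.36 TPM in 2D and at 19.9 and 22.5 TPM in 3D. The 2D libraries of Ugt1a6a differed from each other more than its 3D libraries in relative terms, and the cultures were again apart. Its mean TPM (± SD, n = 2) was 2.27 ± 1.29 in 2D against 21.2 ± 1.84 in 3D, 9.33-fold higher, with a log2 fold change of 2.82 (SE 0.29 and adjusted p = 0.0022 by limma).

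Ugt1a7c (ENSMUSG00000090124, chr1:88095062-88220002), whose human relative UGT1A7 acts on polycyclic phenols, was at 1.46 and 0.626 TPM in 2D and at 5.63 and 4.97 TPM in 3D. Both 3D libraries were above both 2D libraries. Mean TPM (± SD, n = 2) was 1.05 ± 0.592 in 2D against 5.30 ± 0.465 in 3D, 5.07-fold higher, and the log2 fold change was 1.65 (SE 0.23 and adjusted p = 0.005 by limma). Since the annotated transcripts of Ugt1a6a, Ugt1a6b and Ugt1a7c share a first exon or leader, the 3 genes were also added up. Their sum was 12.3 and 7.12 TPM in 2D and 73.2 and 84.2 TPM in 3D, without overlap. The log2 fold change of this sum was 2.94 (SE 0.25, 95% interval 2.29 to 3.59, limma adjusted p = 0.00132), close to that of Ugt1a6a and Ugt1a6b.

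Ugt1a9 (ENSMUSG00000090175, chr1:88070800-88218997), a member that conjugates bulky phenols, was at 0.0288 and 0.0274 TPM in the 2D libraries and at 16.1 and 22.1 TPM in the 3D libraries. It had the highest log2 fold change of the members, with 2D libraries close to 0. Mean TPM (± SD, n = 2) was 0.0281 ± 0.00099 in 2D against 19.1 ± 4.23 in 3D. The log2 fold change of 4.27 (SE 0.17, 95% interval 3.82 to 4.73, limma adjusted p = 0.000317) rests on a 2D level far under the added 1 TPM, and it ranged from 2.25 to 7.21 when 5 or 0.1 TPM was added instead, so its size is not fixed by these data. No ratio is given for the same reason. Ugt1a9 was tested through the 3D libraries alone, and its 2D libraries have nearly no spread in log2(TPM + 1). Its interval and p-value are therefore a description.

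Ugt1a10 (ENSMUSG00000090165, chr1:88055388-88219004), the member farthest from the shared exons, was at 0.552 and 0.676 TPM in 2D and at 4.92 and 2.43 TPM in 3D. The 3D libraries differed from each other by more than the 2D libraries did, and both were above 2D. Ugt1a10 was tested through the 3D libraries alone, so its call is a description. Mean TPM (± SD, n = 2) was 0.614 ± 0.0875 in 2D against 3.68 ± 1.76 in 3D, 5.99-fold higher, with a log2 fold change of 1.48 (SE 0.29 and adjusted p = 0.0132 by limma). This call was lost in limma without 2D replicate 1 (log2 fold change 1.43, adjusted p = 0.0742) and without 2D replicate 2 (1.54, adjusted p = 0.0651), fits in which the remaining 2D library is assumed to vary like the 3D libraries. Ugt1a10 and Ugt1a9 are 86.9% identical in their first exons. Few of their windows that start before the shared exons match another member, 1.6% for Ugt1a10 and 1.3% for Ugt1a9. Counted over the whole transcript, 56.5% and 57.5% do.

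Ugt1a2 (ENSMUSG00000090171, chr1:88200601-88218997) was not called. It was at 0.0285 and 0.0638 TPM in 2D, at 12.0 TPM in 3D replicate 1 and listed at 0 in 3D replicate 2. The 2 libraries of 3D-cultured cells thus stood on both sides of the 2D libraries. The log2 fold change was 1.79 (SE 1.22, 95% interval -1.44 to 5.01, limma adjusted p = 0.279). Without 3D replicate 2 it was 3.64, a value that rests on a single library of 3D-cultured cells. A value of 0 in a table of this kind can be a failed estimate, which was not tested. Ugt1a5 (ENSMUSG00000089943, chr1:88166012-88218997), whose last 20 first-exon bases equal those of Ugt1a2, was at 0.0286 and 0.0162 TPM in 2D and at 0.0551 and 0.0282 TPM in 3D, overlapped between the cultures and was under the minimum level for the test.

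**Figure D3:**
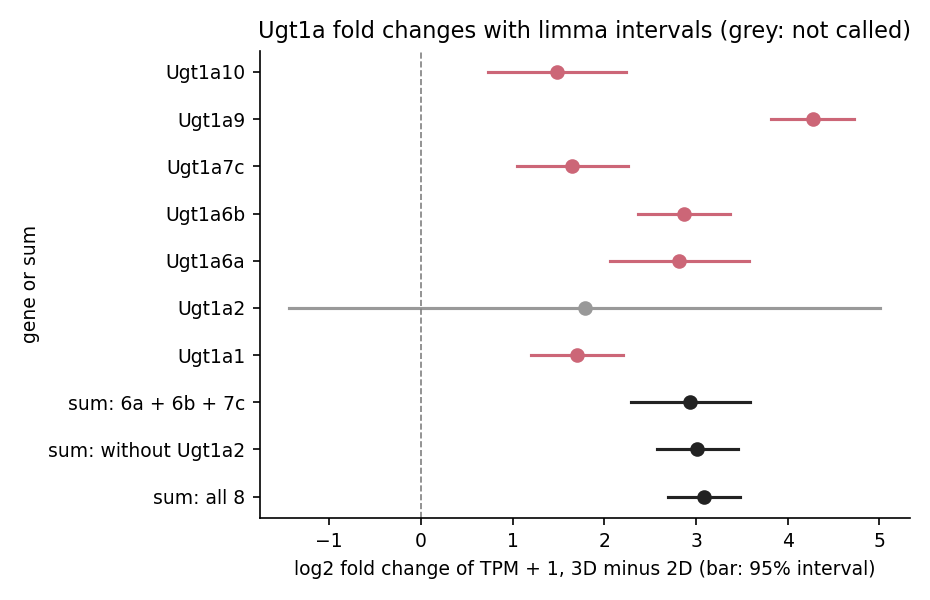
Log2 fold change of TPM + 1, 3D minus 2D, on the x axis for the 7 tested Ugt1a genes and for 3 sums on the y axis, with limma's 95% interval as a bar (red, genes called higher; grey, not called; black, sums). Every interval lies above 0 except that of Ugt1a2, which runs from -1.44 to 5.01, and the sum of all 8 members lies at 3.09.

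The sum over the 8 members depends less than its parts on how reads of the shared exons were divided among them. Ugt1a8, also annotated in the cluster, was not analysed here and is not part of the sum. The sum was 15.4 and 11.2 TPM in the 2D libraries and 116 and 122 TPM in the 3D libraries. The 3D libraries lay close together and far above 2D. Mean TPM (± SD, n = 2) was 13.3 ± 2.93 in 2D against 119 ± 4.28 in 3D, and the log2 fold change was 3.09 (SE 0.15, 95% interval 2.70 to 3.48, limma adjusted p = 0.00044) when the sum took the place of the 8 rows. Of the genes tested with it, 20 had a higher log2 fold change. Without Ugt1a2, the member with discordant 3D libraries, the sum was 15.3 and 11.1 TPM in 2D and 104 and 122 TPM in 3D, with a log2 fold change of 3.02 (SE 0.17 and adjusted p = 0.000525 by limma).

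The members did not all take the same part of the sum in the 2 cultures. These shares are descriptions without a test, since 2 libraries against 2 cannot give an exact permutation p-value under 0.333. Ugt1a6b took 49.6% and 45.8% of the sum in 2D and 41.1% and 46.4% in 3D, with overlap. Ugt1a6a took 20.7% and 12.2% in 2D and 17.1% and 18.4% in 3D, also with overlap. The Ugt1a6 pair thus held most of the summed TPM in every library.

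Ugt1a9 took 0.188% and 0.245% of the sum in 2D and 13.9% and 18.1% in 3D. Its mean share was 0.216% in 2D and 16.0% in 3D, and both 3D libraries were above both 2D libraries. Ugt1a1 took 16.0% and 29.4% in 2D and 8.50% and 11.1% in 3D, so that its share was lower in 3D although its level was higher. Ugt1a7c took 9.53% and 5.59% in 2D and 4.84% and 4.07% in 3D, again lower in both 3D libraries. Ugt1a10 overlapped between the cultures in its share, and Ugt1a2 took 10.3% in 3D replicate 1 and none of the sum in 3D replicate 2.

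**Figure D4:**
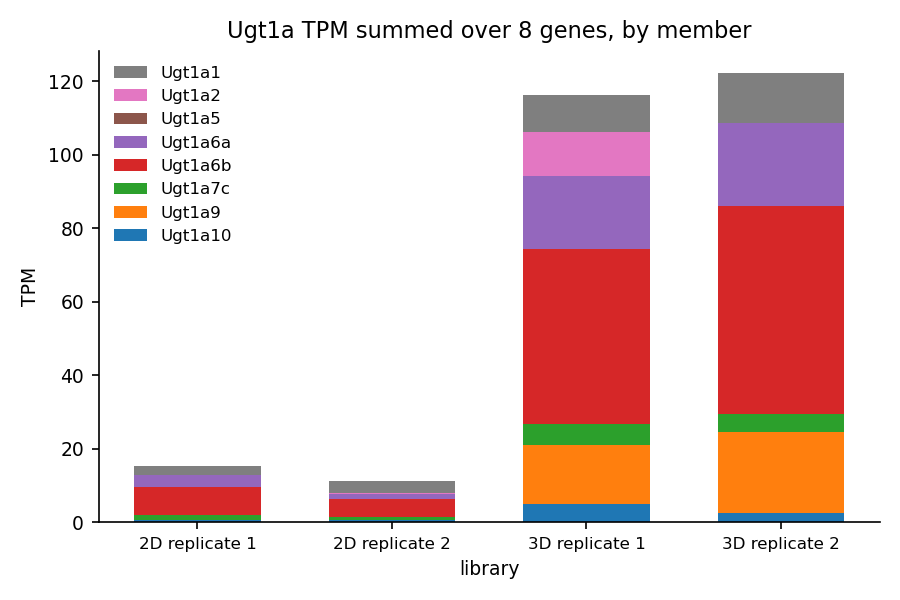
Summed TPM of the 8 Ugt1a genes on the y axis in each of the 4 libraries on the x axis, with colours for the members. The bars reach 15.4 and 11.2 TPM in 2D and 116 and 122 TPM in 3D, Ugt1a6b is the widest band in every bar, and Ugt1a2 is a visible band in 3D replicate 1 alone.

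By level, Ugt1a6b came first in 2D and its libraries were apart from those of the next member. Ugt1a1, Ugt1a6a, Ugt1a7c and Ugt1a10 followed, each overlapping the next, and Ugt1a2, Ugt1a9 and Ugt1a5 came last, at most 0.0638 TPM in any 2D library. In 3D, Ugt1a6b was again first and apart. Ugt1a6a and Ugt1a9 came next and overlapped each other, then came Ugt1a1, Ugt1a2 and Ugt1a7c, where Ugt1a2 overlapped both of the others, then Ugt1a10 and last Ugt1a5. The place of Ugt1a9, the seventh in 2D and the third in 3D, differed most between the orders.

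The receptors and factors known to act on Ugt1a genes were measured in the same libraries. Of 18 such genes 13 were tested, 9 were higher in 3D, none was lower and 4 were not called, with a median log2 fold change of 0.84. Among all genes tested, 23.4% were higher and 27.1% lower, with a median of -0.04. The same shares stand beside the counts of the lists below. Hnf4a, a nuclear receptor of hepatocyte identity, rose from 57.1 ± 0.663 to 159.7 ± 5.78 TPM (SD, n = 2 each; log2 fold change 1.47, limma adjusted p = 0.000241). Ahr, the aryl hydrocarbon receptor, rose from 4.02 ± 0.155 to 10.7 ± 0.211 TPM (SD, n = 2 each; 1.22, limma adjusted p = 0.000847).

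Further factors called higher were Foxa2, Rxra (the partner of many nuclear receptors), Ppara and Foxa3, with log2 fold changes from 0.84 to 1.07. Nfe2l2, which encodes the antioxidant factor Nrf2, was at 92.9 and 91.1 TPM in 2D and 146 and 144 TPM in 3D (log2 fold change 0.65, limma adjusted p = 0.000665). The xenobiotic receptors Nr1i2 (PXR) and Nr1i3 (CAR) were near the bottom of the table, at most 0.305 and 0.145 TPM in any library, and were not tested. Cebpa, also called higher, lost its call without 2D replicate 1, 3D replicate 1 or 3D replicate 2 (limma adjusted p = 0.0674, 0.0759 and 0.0999). The genes not called were Arnt, Keap1, Nr3c1 and Ncor1. With 1 library left out, log2 fold changes ran from 0.19 to 0.44 for Arnt and from 0.18 to 0.47 for Keap1. For Nr3c1, the glucocorticoid receptor, they ran from 0.02 to 0.39. Each of these genes passed the threshold in such a fit, in which 1 culture is a single library.

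Genes that these factors are known to induce were counted in the same way. Of 7 Ahr targets 3 were tested and all were higher in 3D, Cyp1a1 (log2 fold change 1.97), Aldh3a1 (1.28) and Tiparp (0.35), of which Cyp1a1 and Aldh3a1 were tested through the 3D libraries alone. Cyp1a1, the classical readout of the receptor, was at 0.467 and 0.611 TPM in 2D and 5.40 and 4.68 TPM in 3D (limma adjusted p = 0.000767). The other Ahr targets were under 1 TPM in every library and were not tested. Cyp1b1 was lower in 3D, at 0.629 and 0.813 TPM in 2D and 0.445 and 0.471 TPM in 3D. Nqo1, a target of Ahr and of Nrf2, was also lower, at 0.162 and 0.209 TPM in 2D and 0.0266 and 0.0579 TPM in 3D. Cyp1a2 was higher in 3D, at means of 0.0865 TPM in 2D and 0.3545 TPM in 3D, and Ahrr overlapped. The call of Tiparp was lost without 2D replicate 1, 3D replicate 1 or 3D replicate 2 (limma adjusted p = 0.0816, 0.0558 and 0.118).

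Of 16 Nrf2 targets 14 were tested, 10 were higher and none was lower, with a median log2 fold change of 0.67. They included the glutathione transferases Gsta4 (2.81, limma adjusted p = 0.00023) and Gstm1 (1.59, limma adjusted p = 0.000526), and Gclc, the catalytic subunit of the first enzyme of glutathione synthesis, which rose from 208 ± 4.37 to 566 ± 6.18 TPM (SD, n = 2 each; 1.44, limma adjusted p = 0.000203). Txnrd1 (-0.09) and Osgin1 (-0.12), also targets of Nrf2, were not called. Of 17 targets of CAR and PXR 12 were in the table and 6 were tested, 4 higher, 1 lower (Por) and 1 not called. Gstt1, among those higher, was tested through the 3D libraries alone. Cyp3a13 was 2.23-fold higher, and the best known targets, Cyp2b10 and Cyp3a11, were under 1 TPM in every library.

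The supply of UDP-glucuronic acid was followed through 6 genes, of which 4 were tested, 2 were higher in 3D and none was lower. Ugdh, the dehydrogenase that makes UDP-glucuronic acid, was at 81.8 and 80.4 TPM in 2D and at 191 and 211 TPM in 3D. The cultures were well apart, 2.48-fold in the mean, with a log2 fold change of 1.297 (SE 0.06 and adjusted p = 0.000411 by limma). Ugp2, which makes its precursor UDP-glucose, rose from 44.5 ± 0.849 to 68.3 ± 3.03 TPM (SD, n = 2 each; 0.61, limma adjusted p = 0.00164). Slc35d1, which carries UDP-glucuronic acid into the endoplasmic reticulum, was at 32.9 and 40.7 TPM in 2D and 37.6 and 32.4 TPM in 3D and overlapped (log2 fold change -0.07, 95% interval -0.41 to 0.28, limma adjusted p = 0.688). Hk1, a hexokinase, was not called either (0.16, limma adjusted p = 0.341). It passed the threshold without 2D replicate 1 (0.33), a fit with a single 2D library.

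Of the other UDP-glycosyltransferases, 9 of 13 listed genes were in the table, 2 were tested and both were higher in 3D. Ugt2b34, which belongs to the steroid-conjugating family and sits on chromosome 5, was at 21.2 and 20.98 TPM in 2D and at 71.3 and 66.9 TPM in 3D, a 3.28-fold difference (log2 fold change 1.67, SE 0.06, limma adjusted p = 0.000245). In 2D Ugt2b34 thus stood above the summed Ugt1a genes, and in 3D below them. Ugt2b36 was at 0.0334 TPM and listed at 0 in 2D and at 2.45 and 1.98 TPM in 3D (1.66, limma adjusted p = 0.00162), tested through 3D alone. The other 7 were under 1 TPM in every library and were not tested.

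Glucuronides leave the cell through pumps of the Abcc family. Of 10 listed transporters 9 were in the table and 7 were tested, 5 higher, 1 lower and 1 not called, with a median log2 fold change of 0.40. Abcc2 (Mrp2), the pump that moves bilirubin glucuronide into bile, was at 2.22 and 3.83 TPM in 2D and at 63.0 and 59.4 TPM in 3D. It was 20.2-fold higher in the mean, with no overlap between the cultures and a log2 fold change of 3.98 (SE 0.20, 95% interval 3.44 to 4.52, limma adjusted p = 0.000465). Abcc3 (Mrp3), the pump toward blood, rose from 59.3 ± 2.25 to 115 ± 0.553 TPM (SD, n = 2 each; 0.94, limma adjusted p = 0.000467), and Abcc4 rose by 0.41 on the log2 scale. Abcg2, a pump of sulphate conjugates and drugs, fell from 79.1 ± 0.856 to 39.1 ± 3.25 TPM (SD, n = 2 each; -0.9998, limma adjusted p = 0.000875). Abcc1 and Slco2b1 were also called higher (limma adjusted p = 0.0136 and 0.0431). Abcc1 lost its call without either 3D replicate (limma adjusted p = 0.0680 and 0.0610), and Slco2b1 lost its call without any 1 of the 4 libraries (0.0686 to 0.188).

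Bilirubin, the substrate of Ugt1a1, is made from haem. Of 5 genes of this route 2 were higher in 3D, 2 lower and 1 not called, with a median log2 fold change of 0.07. The shares over all genes tested were 23.4% higher and 27.1% lower. Hmox1, the inducible haem oxygenase, was at 278 and 266 TPM in 2D and at 396 and 402 TPM in 3D (log2 fold change 0.55, limma adjusted p = 0.000913), and Hmox2 rose by 0.42 (limma adjusted p = 0.0144). Por, which passes electrons to haem oxygenase and cytochromes P450, fell by 0.25 (limma adjusted p = 0.00478), and Blvra, a biliverdin reductase, fell by 0.23 (limma adjusted p = 0.0459). The call of Blvra was lost without any 1 of the libraries (limma adjusted p = 0.0665 to 0.190), and those of Hmox2 and Por without 3D replicate 2 (0.0702 and 0.0509). Blvrb, the other biliverdin reductase, was not called (0.07). Of the enzymes that remove glucuronic acid, Gusb, the lysosomal glucuronidase, was 0.30 higher on the log2 scale (limma adjusted p = 0.021), a call lost without 2D replicate 1, 3D replicate 1 or 3D replicate 2 (0.0693, 0.110 and 0.0616), and Abhd10 was not called.

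Other conjugating enzymes, sulfotransferases and acetyl and methyl transferases, moved in both directions. Of 16 genes measured 11 were tested, 4 higher, 1 lower and 6 not called, with a median log2 fold change of 0.14. Again, 23.4% of all genes tested were higher and 27.1% lower. The sulfotransferases Sult1d1, Sult1a1 and Sult1c2 rose by 3.58, 2.32 and 2.19 on the log2 scale (adjusted p = 0.000192, 0.000756 and 0.000295 by limma). Sult1d1 went from 4.37 ± 0.241 to 63.4 ± 4.03 TPM (SD, n = 2 each). As3mt was the fourth gene called higher (0.53, limma adjusted p = 0.0134), and it lost its call without 2D replicate 2, 3D replicate 1 or 3D replicate 2 (0.0510, 0.0753 and 0.0538). Over all lists together 40 genes were higher and 4 lower, Por, Blvra and Abcg2 among the latter. Without 3D replicate 2, 2 genes were lower.

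**Figure D5:**
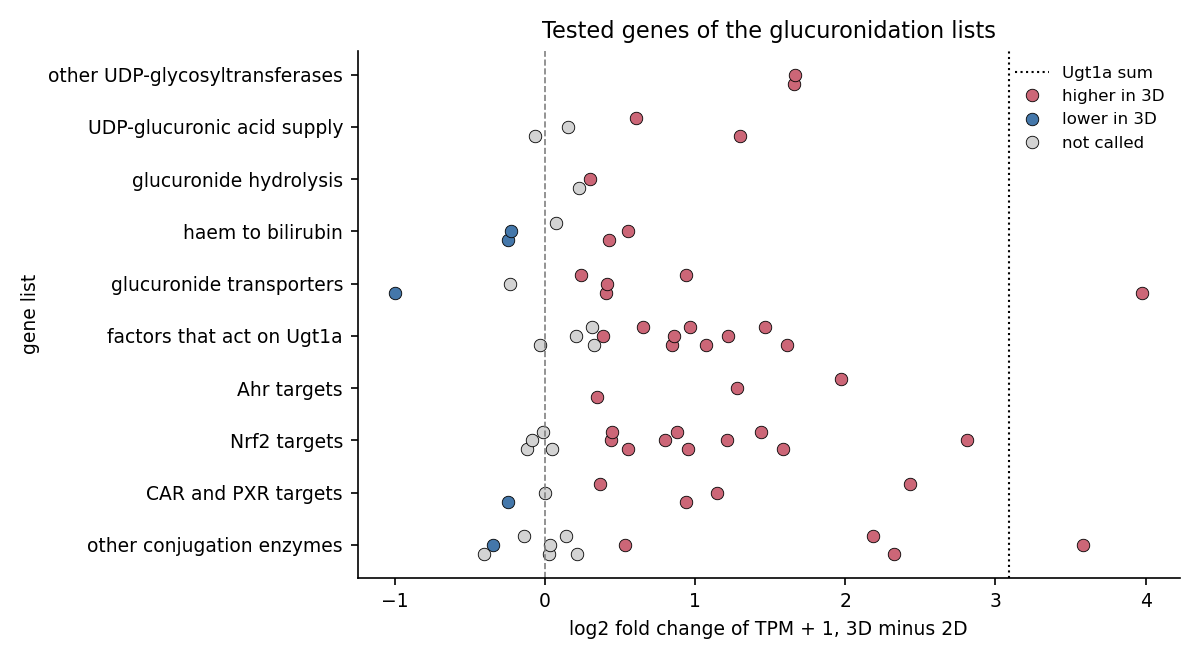
Log2 fold change of TPM + 1, 3D minus 2D, on the x axis for each tested gene (1 point) of the lists on the y axis (red, called higher; blue, called lower; grey, not called). The dotted line marks the Ugt1a sum at 3.09, which Abcc2 at 3.98 and Sult1d1 at 3.58 exceed.

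The genes around the cluster moved in both directions. Within 500 kb of the span chr1:88055388-88220002 lie 31 other genes of the table, of which 12 were tested, 6 higher in 3D, 4 lower and 2 not called. Among all genes tested, 23.4% were higher and 27.1% lower. On the side of Ugt1a10, 4 of 6 tested genes were higher and none was lower. On the side of the shared exons 2 of 6 were higher and 4 lower. Spp2, among those higher, was tested through the 3D libraries alone. Without 3D replicate 1, 3 neighbours were higher. Of the 31, 6 lie inside the span, among them Gm20528 on the minus strand, and none exceeded 0.337 TPM in any library.

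The nearest tested neighbour before the cluster, Usp40, a ubiquitin protease, was 0.58 higher on the log2 scale (limma adjusted p = 0.0162), a call lost without 2D replicate 1 or 3D replicate 1 (0.0590 and 0.0673). Inpp5d, a lipid phosphatase known from blood cells, rose from 64.6 ± 2.67 to 140.5 ± 5.01 TPM (SD, n = 2 each; 1.11, limma adjusted p = 0.000442), and Ngef by 1.60 (limma adjusted p = 0.00108). The fourth was Dgkd (0.26, limma adjusted p = 0.0213), whose call was lost without 2D replicate 1, 3D replicate 1 or 3D replicate 2 (0.0703, 0.110 and 0.0639). After the cluster, the nearest tested gene, Hjurp, a chaperone of the centromeric histone, fell from 124 ± 12.2 to 83.4 ± 0.529 TPM (SD, n = 2 each; -0.56, limma adjusted p = 0.00474). Glrp1, Gm19589 and Gm29336 were also lower, by 1.14 to 1.55 on the log2 scale, while Spp2 and Arl4c were higher.

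The genes whose profile over the 4 libraries lay nearest to that of the Ugt1a sum were sought among 8932 tested genes with a mean of at least 10 TPM, by the Euclidean distance of centred log2(TPM + 1). They were Ncf4 (distance 0.096), Gc (0.195), Selenop (0.292), Gsta4 (0.312) and Fgf1 (0.342). Gc encodes the vitamin D binding protein and Selenop a selenium carrier, both secreted by hepatocytes, and Ncf4 encodes a subunit of the phagocyte oxidase. Ncf4 was at 2.11 and 1.12 TPM in 2D and at 19.8 and 20.96 TPM in 3D, with replicate 1 above replicate 2 in 2D and below it in 3D, as in the Ugt1a sum. With 4 libraries in 2 groups, the likeness is mainly that of the difference between cultures. The order also depends on the added 1 TPM, since Ncf4 and Fgf1 were at means of 1.62 and 2.52 TPM in 2D. Their ratios of mean TPM, 3D over 2D, were 12.6 and 12.3, against 8.98 for the Ugt1a sum. Those of Gc, Selenop and Gsta4 were 8.65, 7.40 and 7.18.

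The hepatocyte label was checked against marker genes, with a mixed result. Of 11 hepatocyte markers 10 were in the table, 5 were higher in 3D, 2 were lower and 3, Serpina1a, Serpina1b and Fgb, were under 1 TPM in every library. Alb, which encodes serum albumin, was at 0.819 and 1.203 TPM in 2D and at 12.7 and 10.0 TPM in 3D. Krt19, a cholangiocyte marker, stood far above Alb, at means of 1687 TPM in 2D and 1200 TPM in 3D. The summed level of the hepatocyte list was 9429 to 9628 TPM in 2D and 5436 to 5511 TPM in 3D, most of it from Krt8 and Krt18. Of 5 cholangiocyte markers 2 were higher in 3D, Spp1 (152 to 775 TPM in the mean, log2 fold change 2.35) and Sox9 (0.62), and 2 were lower, Krt7 (-0.65) and Krt19 (-0.49). Their sum was 2294 to 2401 TPM in 2D and 2269 to 2357 TPM in 3D, and Epcam was listed at 0 in 3 libraries and at 0.0298 TPM in the other. All 4 fibroblast and all 4 endothelial markers in the table were under 1 TPM in every library. Macrophage markers summed to 20.2 to 20.7 TPM in 2D and 23.8 to 27.1 TPM in 3D, mostly Cd68, with 3 of 5 under 1 TPM and Adgre1 at or near 0. The part of cell makeup in the Ugt1a differences was not tested.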

How the data were processed

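Stranded libraries of polyadenylated RNA were made from AML12 cells, 2 per culture. Reads were trimmed (cutadapt 1.8.3, Trimmomatic 0.36), aligned to GRCm38 with HISAT2 2.0.5 and quantified by StringTie 1.3.4 on Ensembl release 93. The authors deposited TPM for each library, with no pooled column. The authors' columns of their own comparison, a log2 fold change and a p-value, were not used.

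TPM keep no depth, so no counting interval was computed. The test was limma 3.58.1 (R 4.3.3, eBayes trended and robust, two-sided, culture as the single factor) on log2(TPM + 1) of the 14116 genes whose mean reached 1 TPM, with Benjamini-Hochberg adjustment over them. For the sum, 1 row replaced the 8 Ugt1a rows. The script was tested on simulated data of 14116 genes, 200 of them changed. It recovered 81.0% of 4-fold and 64.3% of 2-fold changes, with 6.33% of 158 calls false. In the measured data 50.5% of genes were called, a far larger part, so these rates may not hold there. Windows of 150 bases were read from GENCODE M21 transcripts. Protein sequences were not analysed here, and some listed genes are counted but not reported here by name. Named genes are the Ugt1a rows, listed genes, neighbours within 500 kb, markers and the 5 most alike. The members and lists were chosen with earlier results of these data known. Alternatives were other pseudocounts, filters, scalings, sums and variance priors, a replicate block and each library left out.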

Additional observations from a re-analysis of the deposited data

How the results depend on the processing

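The log2 fold change of the Ugt1a sum kept its direction and its call under every alternative run. It was 2.77 with a pseudocount of 5 and 3.17 with 0.1, and 2.88 to 3.30 with 1 library left out. Sums without Ugt1a2 (3.02) and of Ugt1a6a, Ugt1a6b and Ugt1a7c (2.94) were chosen after seeing the data. The correlation of same-numbered libraries in their deviations from the culture means was -0.0549, which shows no strong shared shift. It cannot tell whether same-numbered libraries were prepared together, and the labels do not say. The replicate block gave 3.09 for the sum (limma adjusted p = 0.00149) and 6 members higher. With 1 library left out, 5 to 7 members were higher. Of 80 values of single members 77 kept their side of the threshold, and those of Ugt1a10 without either 2D library and of Ugt1a2 without 3D replicate 2 did not. Without 3D replicate 1 Ugt1a2 fell under the filter and gave no value. A fit with 1 library left out assumes that the remaining library of that culture varies like the libraries of the other culture.

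Over the lists, 32 to 39 genes were higher and 2 to 3 lower with 1 library left out, against 40 and 4. Of the neighbours 3 to 6 were higher. With 1 library left out, the log2 fold changes of Slc35d1 (-0.217 to 0.0811) and Hk1 (-0.0178 to 0.329) took both signs. Slc35d1 turned without 2D replicate 2 and without 3D replicate 2, and Hk1 without 2D replicate 2. The cause was not tested. The table holds TPM, so the count models planned for a count table were not run. Precision is limited by 2 libraries per culture and an unknown depth.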
